A study of Homo sapiens with 7 samples.

Results

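The genes IFT52, DYNC2H1, CC2D2A, TMEM67, OFD1, CPLANE2, EVC2, GPR161, GLI2 and GLI3 were followed as a set of cilium and Hedgehog pathway genes. They were taken from a list of names, and all 10 could be placed among the 2032 protein-coding genes that lay in the deposited windows around replication origins. All 10 also passed the filter on low signal, which left 1710 genes for testing. The 10 were chosen with earlier results of these data known, so neither count is a result about these genes. BrU-seq reads nascent RNA: cells were given 2 mM bromouridine for 30 min, and the RNA that had taken it up was pulled down by antibody for sequencing. RPE1, the line used, derives from human retinal pigment epithelium and is immortalised. The libraries were 3 of cells lacking CFAP20 (CFAP20-KO), 1 of such cells given CFAP20-GFP (the rescue) and 3 of wild type (WT). Every line, WT included, carried the inducible Cas9 called iCas9 and was labelled p53/puro-dKO, so both the CFAP20-KO and the WT cells lacked p53. The labels do not say whether each genotype was 1 clone or several, nor whether replicates were grown separately. The p-values therefore reflect spread between libraries alone, and that spread may be technical.

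The primary cilium is a single antenna built on a modified centriole, and RPE1 cells are widely used to study it because they grow one when they stop dividing. Intraflagellar transport (IFT) trains carry cargo along the cilium, kinesin-2 moves them outward and dynein-2 moves them back, and a transition zone at the base controls what enters. Vertebrate Hedgehog signalling runs through this structure: when the pathway is on, Smoothened gathers in the cilium, the receptor GPR161 leaves it, and the transcription factors GLI2 and GLI3 are spared from processing into repressors. CFAP20 itself is known as a protein of cilia. The growth condition that the labels give is cells close to confluence in serum, and the labels report no step that would arrest the cells or switch Hedgehog signalling on.

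The starts of some of these genes carry the results below and are shown first. Each stretch of 300 bases runs from 250 bases before to 50 bases after a start in RefSeq (GRCh38.p14), 5′ to 3′ on the gene's own strand. Capitals mark matches, on either strand, to the motifs GACCACCCA (a GLI site), GTTGCCA (an RFX half-site), GCGCATGC (NRF1), CCGGAAGT (ETS), GGGCGGG (GC box) and TATAAA. The 2 CC2D2A stretches are its outer start, which had little signal, and an inner start 9.35 kb further in, where most of its signal began.
CC2D2A outer start, chr4:15469615-15469914, plus strand: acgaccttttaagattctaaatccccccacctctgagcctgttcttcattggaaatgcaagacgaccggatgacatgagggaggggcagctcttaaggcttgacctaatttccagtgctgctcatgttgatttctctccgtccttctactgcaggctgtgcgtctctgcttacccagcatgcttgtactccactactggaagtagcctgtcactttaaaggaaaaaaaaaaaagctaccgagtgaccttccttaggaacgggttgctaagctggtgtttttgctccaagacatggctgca
CC2D2A inner start, chr4:15478962-15479261, plus strand: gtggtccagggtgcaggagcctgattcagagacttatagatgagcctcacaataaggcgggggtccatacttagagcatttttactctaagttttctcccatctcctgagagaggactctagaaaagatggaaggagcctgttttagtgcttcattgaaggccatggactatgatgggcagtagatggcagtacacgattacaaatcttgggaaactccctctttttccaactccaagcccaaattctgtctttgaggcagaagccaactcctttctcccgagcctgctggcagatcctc
The 2 GPR161 stretches are its outermost start, which was followed by little signal, and a start 0.96 kb further in. The start that GENCODE marks as canonical lies between them, 0.737 kb in, and the signal was also higher after that start than before it, so the rise is not tied to one of these starts.
GPR161 outer start, chr1:168137618-168137917, minus strand: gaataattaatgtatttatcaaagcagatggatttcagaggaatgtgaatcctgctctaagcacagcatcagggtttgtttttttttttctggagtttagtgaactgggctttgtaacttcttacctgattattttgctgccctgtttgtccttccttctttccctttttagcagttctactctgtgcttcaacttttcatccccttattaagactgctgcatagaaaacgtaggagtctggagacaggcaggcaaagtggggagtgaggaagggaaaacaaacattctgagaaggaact
GPR161 inner start, chr1:168136658-168136957, minus strand: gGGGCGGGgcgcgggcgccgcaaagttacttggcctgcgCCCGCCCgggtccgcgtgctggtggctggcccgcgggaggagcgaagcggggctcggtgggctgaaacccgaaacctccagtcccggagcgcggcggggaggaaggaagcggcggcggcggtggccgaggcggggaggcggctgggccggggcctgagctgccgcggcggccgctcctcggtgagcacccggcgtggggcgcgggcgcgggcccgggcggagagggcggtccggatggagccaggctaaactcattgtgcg
DYNC2H1 and CPLANE2 are shown because they were the 2 genes with the RFX half-site, and IFT52 because it was the gene whose CFAP20-KO and WT values did not overlap.
DYNC2H1, chr11:103109176-103109475, plus strand: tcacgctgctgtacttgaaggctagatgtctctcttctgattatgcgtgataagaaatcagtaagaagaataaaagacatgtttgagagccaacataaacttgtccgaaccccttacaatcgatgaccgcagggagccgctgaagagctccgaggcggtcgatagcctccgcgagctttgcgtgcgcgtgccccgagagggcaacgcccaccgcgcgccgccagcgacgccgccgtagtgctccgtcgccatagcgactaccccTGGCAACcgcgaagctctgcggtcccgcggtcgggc
CPLANE2, chr1:16237134-16237433, minus strand: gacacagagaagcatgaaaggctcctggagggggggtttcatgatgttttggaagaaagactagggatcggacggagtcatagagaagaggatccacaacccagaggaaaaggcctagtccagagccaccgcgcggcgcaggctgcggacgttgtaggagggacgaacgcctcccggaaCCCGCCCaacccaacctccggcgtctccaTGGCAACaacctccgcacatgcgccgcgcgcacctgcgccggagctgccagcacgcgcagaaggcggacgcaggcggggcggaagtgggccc
IFT52, chr20:43590687-43590986, plus strand: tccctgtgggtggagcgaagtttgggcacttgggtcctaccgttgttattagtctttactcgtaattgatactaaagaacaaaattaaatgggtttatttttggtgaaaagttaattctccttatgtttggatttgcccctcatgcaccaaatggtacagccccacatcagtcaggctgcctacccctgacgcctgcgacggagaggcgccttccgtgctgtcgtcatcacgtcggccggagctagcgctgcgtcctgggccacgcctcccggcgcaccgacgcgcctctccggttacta

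RefSeq start entries were used for 8 of the 10 genes, 15 entries in all. No start is shown for TMEM67 and GLI3. RFX factors are known regulators of ciliary genes, and the RFX half-site was found in 2 of the 15 entries, against 4.08% of 35116 entries in the table. The GC box was in 5 entries, from 4 genes, against 33.1% of all entries, and its letters can overlap themselves. The ETS motif was in 1 entry, that of OFD1, against 4.14% of all entries. TATAAA was in 1 entry, an inner start of GLI2, against 11.5%. The GLI and NRF1 letters were in 0 of the 15 entries, against 0.236% and 3.05% of all entries. These are matches of letters and were not tested.

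Signal here is the authors' normalised read density per 200-bp bin on the transcribed strand, averaged over the gene body up to 100 kb from the start annotated in GENCODE 44 (hg38). Being a mean per bin it is already per length. Levels of different genes can be set side by side only roughly. The length covered ran from 5.49 kb for CPLANE2 to 100 kb for EVC2 and GLI3, and signal was uneven along the genes. The order of the genes therefore depends in part on the stretch covered and on the annotated start. The smallest unit of this scale was 0.393 in CFAP20-KO replicate 1, the shallowest library, and 0.0733 in WT replicate 2, the deepest. A number in the headers of the splice index columns groups the libraries, and each such group is called a run here, although the labels do not say what the number marks. CFAP20-KO replicate 1 and WT replicate 1 formed run A, CFAP20-KO replicates 2 and 3 and WT replicate 3 run B, and the rescue and WT replicate 2 run C. CFAP20-KO replicates 2 and 3 resembled each other more than any other pair, with a correlation of 0.997 across genes against 0.968 for the next pair. CFAP20 was not among the genes placed and its loss was not checked in these values. Of 7 markers of retinal pigment epithelium, RLBP1 was placed, at 0.0163 to 0.107 in CFAP20-KO and 0.127 to 0.356 in WT. Of 4 neuronal markers 2 were placed, MAP2 at 0.430 to 0.878 in CFAP20-KO and 1.112 to 2.411 in WT, and SYT1 at 0.994 to 3.30 in CFAP20-KO and 1.81 to 3.98 in WT. No blood, endothelial or epithelial marker was placed, and the part of other cell types in the results was not tested.

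Ranked by their WT mean among the 1710 genes tested, the 10 genes lay between the 6.02nd percentile for EVC2 and the 43.2nd for OFD1. By WT mean, OFD1 was highest (2.45 ± 0.58), followed by DYNC2H1 (2.10 ± 0.47), GPR161 (2.01 ± 0.085), GLI2 (2.00 ± 0.47), CC2D2A (1.86 ± 0.25), CPLANE2 (1.82 ± 1.42), GLI3 (1.32 ± 0.37), IFT52 (0.979 ± 0.052), TMEM67 (0.845 ± 0.180) and EVC2 (0.255 ± 0.126; SD, n = 3 each). EVC2 was below the other 9 genes in every WT library, and each other neighbouring pair in this order overlapped between libraries. In CFAP20-KO the means ranged from 2.68 ± 1.79 for GLI2 to 0.111 ± 0.026 for EVC2, and EVC2 was again lowest in every library.

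**Figure D1:**
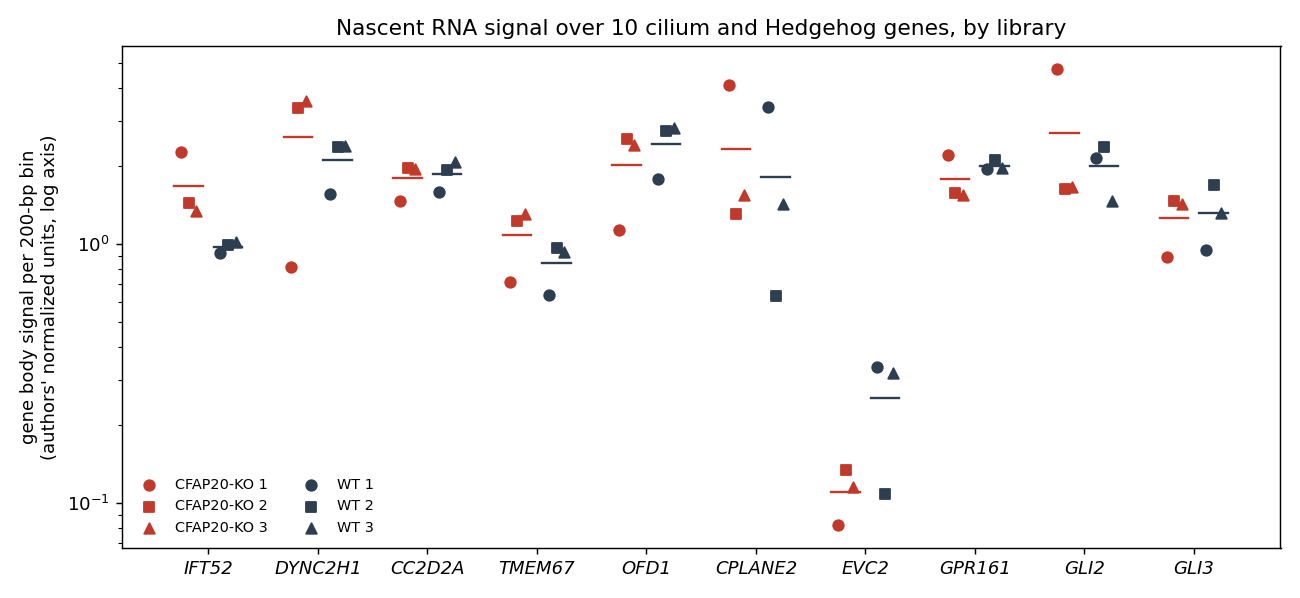
Gene body signal of the 10 genes in each library, on a log axis; red points are the 3 CFAP20-KO libraries, dark points the 3 WT libraries, and short lines the group means. The 2 groups are separate for IFT52 and overlap for the other 9 genes, and EVC2 lies lowest in all 6 libraries.

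The comparison of CFAP20-KO with WT asked whether these genes were transcribed differently without CFAP20. With limma over 3 against 3 libraries, 0 of the 10 genes passed an adjusted p of 0.05, and 0 of all 1710 genes did (0%), with 150 genes at an unadjusted p under 0.05. Among the 10 genes, IFT52 was the only one at such an unadjusted p. The median log2 change of the 10 genes was 0.003, against 0.17 over all genes tested, and centring each library on its median moved that median over all genes to -0.02. The CFAP20-KO and WT values did not overlap for 1 of the 10 genes, against 18.1% of all genes tested. In bulk libraries such as these, fewer transcribing cells and less RNA per cell cannot be told apart.

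IFT52 (chr20:43590937-43647299, plus strand, hg38) encodes a core subunit of the IFT-B complex, which carries cargo toward the ciliary tip. Its signal was 2.26, 1.44 and 1.34 in the 3 CFAP20-KO libraries, against 0.921, 0.995 and 1.02 in the WT libraries. Every CFAP20-KO value was above every WT value, and CFAP20-KO replicate 1 was the highest. The log2 change was 0.70 (SE 0.29, limma adjusted p = 0.54), so the difference did not pass over all genes. The groups were apart over much of the gene but overlapped at its ends. Over the first 10 kb the signal was 2.12 ± 0.44 in CFAP20-KO and 1.26 ± 0.29 in WT (SD, n = 3). From 10 to 50 kb it was 1.68 ± 0.51 in CFAP20-KO and 0.954 ± 0.047 in WT. The exact two-sided permutation p was 0.1 for each, the smallest 3 against 3 allows. Both stretches are parts of the gene body whose values already did not overlap, so these p-values are not separate support. In the first 1 kb alone the signal was 1.57, 2.05 and 2.09 in CFAP20-KO and 1.44, 2.24 and 2.17 in WT. From 30 to 40 kb CFAP20-KO replicate 2 (1.04) was just below WT replicate 2 (1.046). Beyond 50 kb the signal was 1.65, 0.516 and 0.691 in CFAP20-KO and 1.03, 0.551 and 0.4998 in WT. Between libraries of one run the gene body difference was 1.24 on the log2 scale for replicate 1. It was 0.47 and 0.37 for CFAP20-KO replicates 2 and 3 against WT replicate 3. The 3 tested genes within 5 Mb of IFT52 had a median change of 0.63, and 1 of them was also higher without overlap. Their median difference was 0.39 for replicate 1 and 0.05 in run B.

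DYNC2H1 (chr11:103109410-103479863, plus strand) encodes the heavy chain of dynein-2, the motor that returns IFT trains to the base. Its signal was 0.814, 3.36 and 3.56 in the CFAP20-KO libraries, against 1.56, 2.37 and 2.38 in the WT libraries. CFAP20-KO replicate 1 was below every WT library and the other two CFAP20-KO libraries were above every WT library. On the log2 scale the change was 0.06 (SE 0.55, limma adjusted p = 0.99) and turned to -0.13 once each library was centred on its median. Within runs the differences had opposite signs, at -0.89 for replicate 1 and at 0.49 and 0.57 for CFAP20-KO replicates 2 and 3. This held beyond the start: from 10 to 91.6 kb the signal was 0.703, 3.18 and 3.41 in CFAP20-KO and 1.45, 2.24 and 2.16 in WT. It was not seen in the first 1 kb, with 5.19, 6.46 and 6.62 in CFAP20-KO and 6.66, 5.00 and 7.77 in WT.

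**Figure D2:**
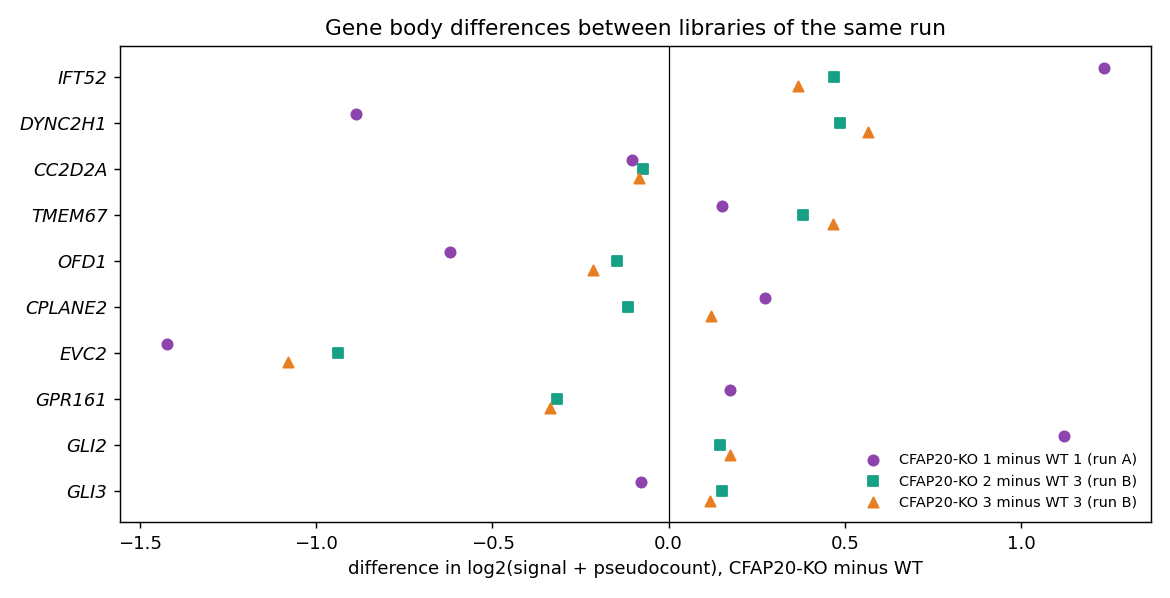
Difference in log2 gene body signal, CFAP20-KO minus WT, between libraries that share a run, for each of the 10 genes; the line marks no difference. IFT52, TMEM67 and GLI2 lie right of the line in all 3 comparisons and CC2D2A, OFD1 and EVC2 left of it, while DYNC2H1, CPLANE2, GPR161 and GLI3 fall on both sides.

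CC2D2A and TMEM67 encode proteins of the transition zone. CC2D2A (chr4:15469865-15601552, plus strand) had a signal of 1.47, 1.97 and 1.95 in CFAP20-KO and 1.58, 1.93 and 2.07 in WT. The groups overlapped throughout, with a log2 change of -0.05 (SE 0.27, limma adjusted p = 0.99), and replicate 1 was the lowest in each group. The gene was read in 3 stretches that differed much more than the groups did. From its annotated start to 9 kb the signal was 0.463, 0.736 and 0.692 in CFAP20-KO and 0.447, 0.735 and 0.552 in WT. From 9 to 15 kb, just after the inner start shown above, it was 10.2, 7.13 and 7.13 in CFAP20-KO and 10.7, 5.05 and 11.2 in WT. From 15 to 86.6 kb, the end of the window, it was 0.869, 1.69 and 1.67 in CFAP20-KO and 0.966 and 1.81 in WT replicates 1 and 2, with WT replicate 3 between them. The step at the inner start was abrupt. In the 1 kb before it the signal was 0.944, 0.672 and 0.504 in CFAP20-KO and 0.360, 0.616 and 0.485 in WT, and in the 1 kb after it 20.1, 11.8 and 12.3 in CFAP20-KO and 24.5, 5.50 and 26.1 in WT. WT replicate 2 was the lowest of the 6 libraries there. The strongest 10 kb held 37.9% of all the signal of CC2D2A, where an even spread would put 11.5%.

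TMEM67 had a signal of 0.716, 1.23 and 1.31 in CFAP20-KO, against 0.638, 0.968 and 0.929 in WT. CFAP20-KO replicates 2 and 3 were above every WT library and CFAP20-KO replicate 1 lay within the WT range. The log2 change was 0.31 (SE 0.33, limma adjusted p = 0.87). Over its first 2 kb the signal was 2.47 ± 0.38 in CFAP20-KO and 2.64 ± 0.48 in WT, and beyond that 1.04 ± 0.32 in CFAP20-KO and 0.788 ± 0.181 in WT (SD, n = 3).

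OFD1 (chrX:13734743-13777955, plus strand), a protein of centriolar satellites and the basal body, had a signal of 1.13, 2.54 and 2.42 in CFAP20-KO and 1.78, 2.74 and 2.82 in WT. The groups overlapped, replicate 1 was the lowest of each, and the log2 change was -0.31 (SE 0.38, limma adjusted p = 0.90). The groups lay further apart at its start than beyond it. Over the first 2 kb the signal was 4.84, 7.36 and 6.10 in CFAP20-KO, against 7.26, 10.3 and 12.6 in WT, with 1 CFAP20-KO value just above the lowest WT value (exact two-sided permutation p = 0.2). From 2 to 34.8 kb it was 1.78 ± 0.76 in CFAP20-KO and 1.99 ± 0.47 in WT.

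CPLANE2 (chr1:16231692-16237183, minus strand) encodes a small GTPase-like member of the CPLANE complex, which helps assemble IFT particles at the base. It is the shortest of the 10 genes at 5.49 kb, so its start makes up much of the value. Its signal was 4.11, 1.31 and 1.55 in CFAP20-KO and 3.39, 0.633 and 1.42 in WT. Both libraries of run A were far above the other 4, and the spread of 6.49-fold between the highest and lowest library was the widest of the 10 genes. The log2 change was 0.46 (SE 0.64, limma adjusted p = 0.93). In the first 1 kb the signal was 9.13, 1.47 and 2.02 in CFAP20-KO and 6.66, 0.777 and 2.69 in WT. The same strand also carried signal in the 10 kb before the start. It was 4.93, 1.31 and 1.45 in CFAP20-KO and 4.47, 1.61 and 3.25 in WT, again highest in run A. The last 1 kb before the start held less, with library values from 0.192 to 0.787. Whether transcription from before the start adds to the CPLANE2 value was not tested.

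EVC2 (chr4:5542772-5709548, minus strand) encodes a membrane protein that, with EVC, relays the Hedgehog signal from Smoothened at the base of the cilium. Its mean signal was 0.0826, 0.134 and 0.115 in CFAP20-KO and 0.336, 0.109 and 0.319 in WT. WT replicate 2 lay within the CFAP20-KO range and the other 2 WT libraries above it. Its log2 change was -0.77 (SE 0.37, limma adjusted p = 0.58). With the run as a covariate it was -1.19 (SE 0.19, limma adjusted p = 0.030), and EVC2 was then the 1 gene of the 10 that passed, against 13.4% of all 1710 genes in that fit. Over 16 alternative fits its adjusted p ranged from 0.022 to 1. WT replicate 2 has no weight in that fit, since no CFAP20-KO library shares its run. The change then compares CFAP20-KO replicate 1 with WT replicate 1, a difference of -1.42, and CFAP20-KO replicates 2 and 3 with WT replicate 3, differences of -0.94 and -1.08. Part of the spread with the run covariate is between CFAP20-KO replicates 2 and 3, the most alike pair, so the SE may be too small.

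The EVC2 value was not a gene-wide level. From the start to 70 kb the signal was 0.00674, 0.00503 and 0.00257 in CFAP20-KO and 0.00514, 0.000838 and 0.008 in WT, which is close to nothing in every library. The strongest 10 kb held 93.9% of the signal, against 10.0% for an even spread, and 99.8% of tested genes with at least 20 kb covered were less concentrated. The signal stood mainly between 73 and 75 kb from the start (chr4:5634548-5636548, minus strand, hg38), at 2.52, 5.30 and 4.46 in CFAP20-KO and 12.7, 3.20 and 12.6 in WT (exact two-sided permutation p = 0.3). No exon of EVC2 and no other GENCODE gene of either strand overlapped this stretch, and 1 EVC2 exon lay within the 10 kb around it. Without its strongest 10 kb EVC2 fell under the filter on low signal and had no test. The bin that was highest on average is printed with its flanks, since most of the EVC2 signal comes from this place; the bin is in capitals.
EVC2 strongest bin, chr4:5635451-5635750, minus strand: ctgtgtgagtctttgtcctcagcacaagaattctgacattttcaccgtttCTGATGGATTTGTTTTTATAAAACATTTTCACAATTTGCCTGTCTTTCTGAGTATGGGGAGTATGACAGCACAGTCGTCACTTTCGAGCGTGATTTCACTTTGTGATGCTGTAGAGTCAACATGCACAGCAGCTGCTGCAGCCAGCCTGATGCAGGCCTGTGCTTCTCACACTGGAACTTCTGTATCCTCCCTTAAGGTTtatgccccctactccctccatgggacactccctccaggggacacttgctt
In this bin the signal was 11.01, 17.92 and 11.88 in CFAP20-KO and 38.70, 9.97 and 41.07 in WT, with WT replicate 2 below every CFAP20-KO library.

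GPR161 (chr1:168079542-168137667, minus strand) encodes a receptor of the cilium that holds Hedgehog signalling down through cAMP. Its signal was 2.21, 1.57 and 1.55 in CFAP20-KO, against 1.95, 2.11 and 1.97 in WT. CFAP20-KO replicates 2 and 3 were below every WT library and CFAP20-KO replicate 1 above every one. The log2 change was -0.19 (SE 0.27, limma adjusted p = 0.93). Signal was low over the first 1 kb after the outermost start, at 0.378 ± 0.221 in CFAP20-KO and 0.518 ± 0.391 in WT. From 1 to 3 kb it was 7.75, 3.58 and 3.62 in CFAP20-KO and 7.41, 2.24 and 5.60 in WT. In this stretch both libraries of run A were the highest and WT replicate 2 the lowest.

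GLI2 and GLI3 encode the zinc finger factors at the end of the pathway, GLI2 mainly as an activator and GLI3 mainly as a repressor. GLI2 (chr2:120735623-120992653, plus strand) had a signal of 4.75, 1.63 and 1.67 in CFAP20-KO and 2.15, 2.37 and 1.47 in WT. CFAP20-KO replicate 1 stood alone above the rest, and the other two CFAP20-KO libraries lay inside the WT range. The log2 change was 0.26 (SE 0.45, limma adjusted p = 0.96), and without CFAP20-KO replicate 1 it was -0.24. The excess in that library was present both near the start, with 9.38 over the first 10 kb against 4.14 to 5.57 in the other 5 libraries, and from 10 to 40 kb, with 4.83 against 1.17 to 2.62.

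GLI3 (chr7:41960949-42264100, minus strand) had a signal of 0.893, 1.47 and 1.43 in CFAP20-KO and 0.946, 1.69 and 1.31 in WT. The groups overlapped, and replicate 1 was the lowest in each, with a log2 change of -0.05 (SE 0.33, limma adjusted p = 0.99). Almost no signal followed the outermost annotated start: over its first 25 kb the signal was at most 0.00944 in any CFAP20-KO library and at most 0.0149 in any WT library. Signal set in at 26 kb, where the start of the transcript that GENCODE marks as canonical lies (26.9 kb in). From 26 to 36 kb it was 2.89, 4.61 and 4.62 in CFAP20-KO and 3.59, 4.40 and 5.33 in WT. From 90 to 100 kb it was down to 0.519, 0.726 and 0.623 in CFAP20-KO and 0.300, 0.714 and 0.426 in WT, so it declined with distance in all 6 libraries.

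**Figure D3:**
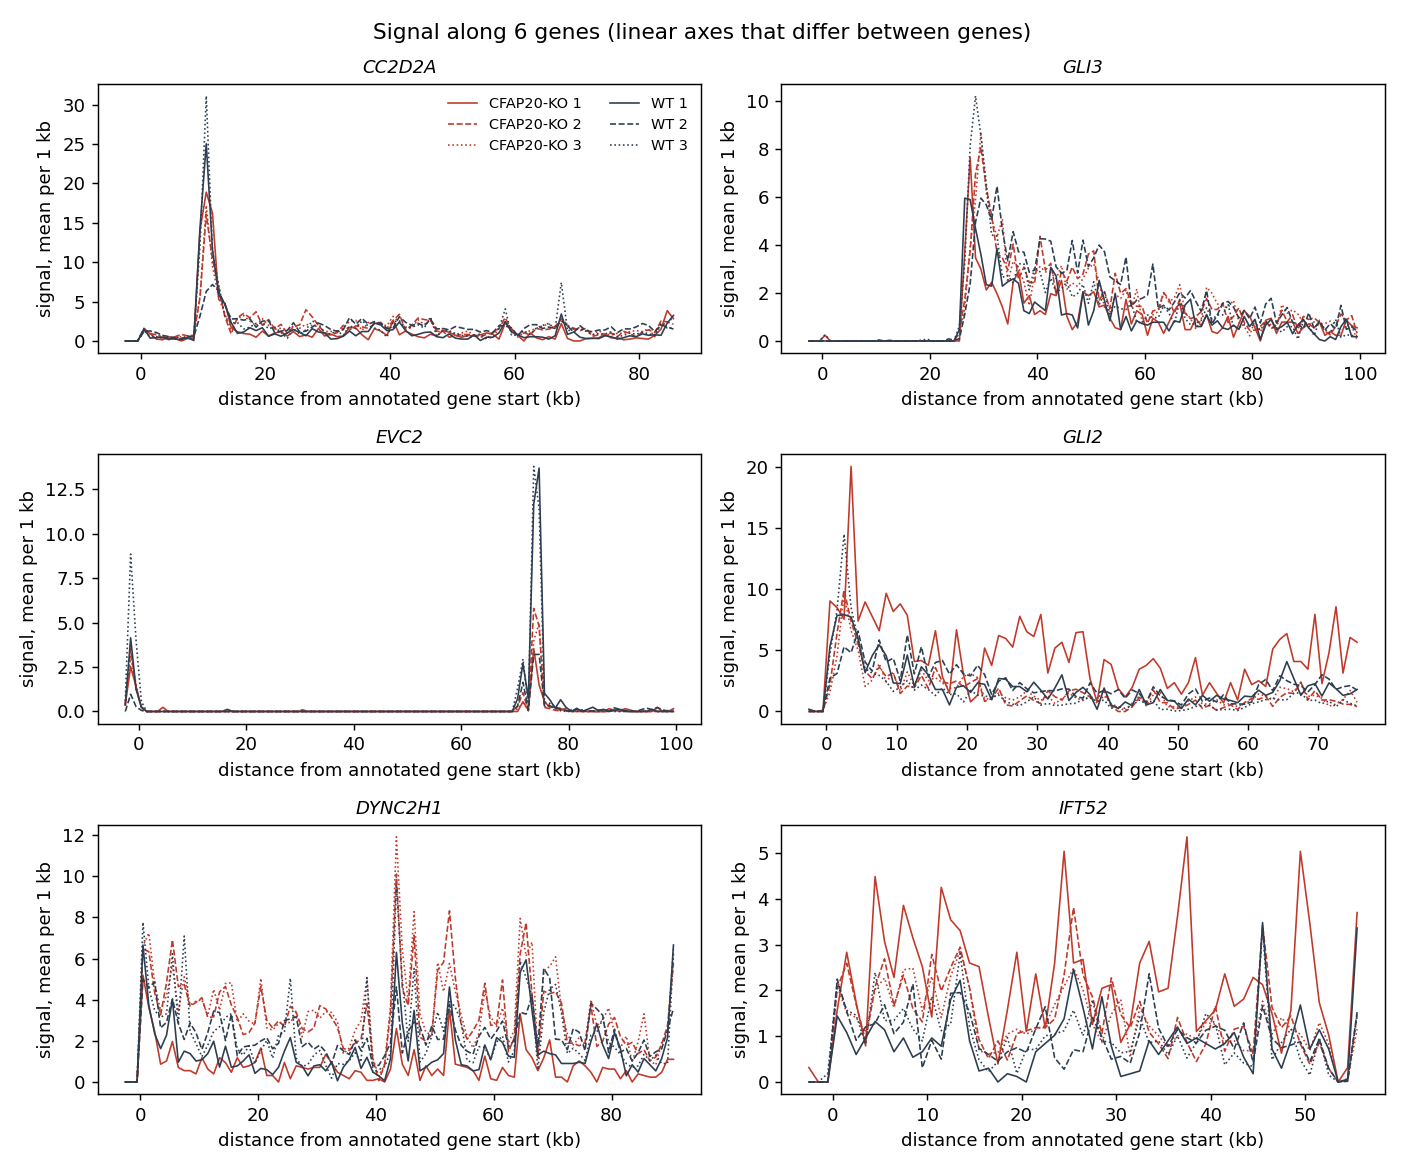
Signal along 6 of the genes in 1-kb means, by distance from the annotated start, for the 3 CFAP20-KO (red) and 3 WT (dark) libraries; vertical axes differ between genes. CC2D2A rises at 9 kb and GLI3 at 26 kb in all 6 libraries, EVC2 is near 0 apart from 70 to 80 kb and the stretch before its start, and CFAP20-KO replicate 1 stands above the others over most of GLI2 and IFT52 and below them over most of DYNC2H1.

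A start-to-body ratio, the first 2 kb over the rest of the gene, was examined because a change in release from the start or in elongation would move it. It could be tested for 9 of the 10 genes, CPLANE2 being too short. With limma, 0 of the 9 passed, and 0 of all 1585 genes (0%), with 46 at an unadjusted p under 0.05. With same-numbered libraries as pairs, 15 of all genes passed (0.946%), although CFAP20-KO replicate 2 and WT replicate 2 are of different runs. With the run as a covariate 217 passed (13.7%), of which 206 were lower in CFAP20-KO. In both fits 0 of the 9 passed, the lowest limma adjusted p among them being 0.40 for EVC2 with the pairs and 0.058 for GLI2 with the run covariate. On the log2 scale the ratio of OFD1 was 2.33, 1.68 and 1.45 in CFAP20-KO and 2.28, 2.14 and 2.47 in WT, a change of -0.47 (SE 0.45, limma adjusted p = 0.99). That of TMEM67 was 1.51, 1.18 and 1.004 in CFAP20-KO and 1.91, 1.29 and 1.82 in WT, a change of -0.44 (SE 0.41). The groups overlapped for both genes. Over all genes the median change of this ratio was -0.27, and -0.0073 with centred libraries. The first 2 kb held little of the signal of GLI3, which set in at 26 kb, and of EVC2. CC2D2A had signal in its first 2 kb, but most of its signal lay beyond 9 kb.

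The share of signal lying beyond 50 kb was compared in the 6 genes with at least 60 kb covered, since incomplete elongation would lower it. The distance was counted from the annotated start, although GLI3 signal set in at 26 kb and most CC2D2A signal lay beyond 9 kb. The share therefore does not read the genes alike. The share was lower in CFAP20-KO on average for 4 of the 6 genes and higher for the other two, and no exact test went below 0.2. For DYNC2H1 it was 40.4%, 43.2% and 42.6% in CFAP20-KO and 50.3%, 46.0% and 43.1% in WT, a difference of -4.42 percentage points (exact two-sided permutation p = 0.2). One CFAP20-KO value was just above the lowest WT value. Between libraries of one run the difference was -9.89 points for replicate 1 and -0.21 points in run B. For GLI3 the share was 42.3%, 40.8% and 41.9% in CFAP20-KO and 38.9%, 45.0% and 33.2% in WT. For GLI2 it was 26.4%, 17.5% and 21.7% in CFAP20-KO and 24.6%, 24.7% and 15.1% in WT. For CC2D2A and TMEM67 the means were 26.6% ± 3.8 and 21.1% ± 2.4 in CFAP20-KO, against 28.6% ± 6.7 and 23.6% ± 1.7 in WT (SD, n = 3). The share of EVC2, 96.7% ± 2.2 in CFAP20-KO and 98.9% ± 0.6 in WT, restates the stretch described above.

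Splicing of the same nascent RNA was deposited as an index per intron, from 0 to 1. The table held introns of 1 of the 10 genes, CC2D2A, with 2 introns of transcript ENST00000438599 among 6709 introns. Both lie in the stretch of high signal after the inner start. Intron 4 spans chr4:15479329-15480703 and intron 5 spans chr4:15480828-15481196 (hg38, plus strand). Their splice sites are shown with 3 exon bases and 6 or 20 intron bases, the first and last 2 bases of each intron in capitals.
Intron 4 donor: aagGTaagt
Intron 4 acceptor: ctctgaccttcttcctccAGcca
Intron 5 donor: ggaGTaagt
Intron 5 acceptor: cttgctctgttcactcacAGgag
The index of intron 4 was 0.366, 0.569 and 0.615 in CFAP20-KO, 0.65 in the rescue, and 0.189, 0.651 and 0.319 in WT. The groups overlapped because WT replicate 2 was higher than every CFAP20-KO library. The difference was 0.13 (SE 0.14, limma adjusted p = 0.94). The index of intron 5 was 0.615, 0.612 and 0.622 in CFAP20-KO, 0.731 in the rescue, and 0.520, 0.630 and 0.486 in WT. Again WT replicate 2 was above the CFAP20-KO libraries and the other 2 WT libraries below them, with a difference of 0.07 (SE 0.07, limma adjusted p = 0.94). No intron of the 6537 tested passed in this comparison (0%), with 373 at an unadjusted p under 0.05. Between libraries of the same number, CFAP20-KO minus WT was 0.18, -0.08 and 0.30 for intron 4 and 0.10, -0.02 and 0.14 for intron 5. The sign differed between pairs, and the negative pair, CFAP20-KO replicate 2 and WT replicate 2, joins libraries of different runs. Between libraries of one run it was 0.18 for replicate 1, and 0.25 and 0.30 for CFAP20-KO replicates 2 and 3 against the same WT replicate 3, for intron 4, and 0.10, 0.13 and 0.14 for intron 5. With the pairs the limma adjusted p was 0.59 for intron 4 and 0.63 for intron 5. With the run as a covariate it was 0.28 for intron 4 and 0.32 for intron 5, in a fit where WT replicate 2 has no weight. In both of these fits 0 of all 6537 introns passed. The single rescue library, set against WT replicate 2 of its run, differed by -0.00138 for intron 4 and by 0.10 for intron 5, and cannot be tested. The index also differed between libraries at large. Its median over introns was 0.519, 0.706 and 0.686 in CFAP20-KO, 0.723 in the rescue, and 0.543, 0.693 and 0.650 in WT. The rescue was thus the highest of all libraries and WT replicate 2 the highest of WT.

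**Figure D4:**
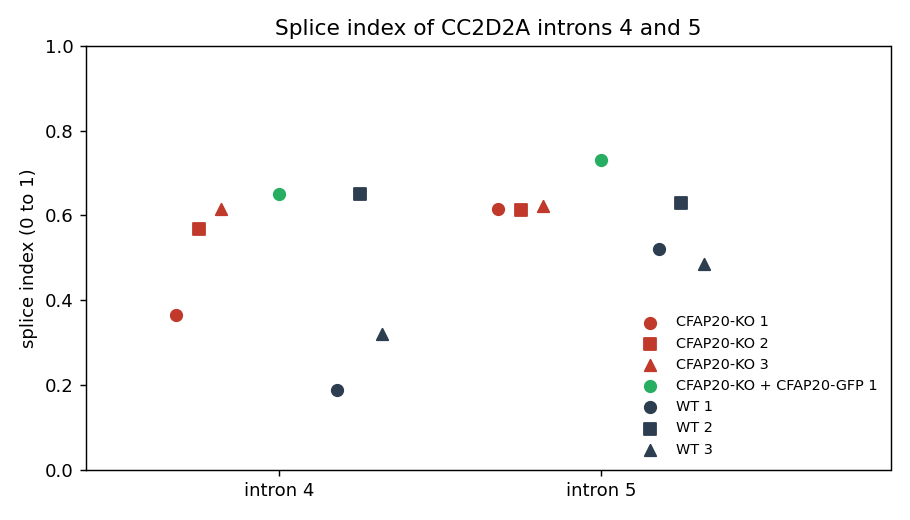
Splice index of CC2D2A introns 4 and 5 in every library, from 0 to 1: CFAP20-KO (red) at left, the rescue (green) in the middle and WT (dark) at right. WT replicate 2 lies above the CFAP20-KO values for both introns, while WT replicates 1 and 3 lie below all of them for intron 5.

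Of 122 further cilium and Hedgehog genes on a wider list, 12 could be placed and tested. In the comparison without covariates 0 of the 12 passed, with a median log2 change of -0.08 against 0.17 over all genes. With the run as a covariate 1 was higher and 1 lower, against 13.4% of all 1710 genes called in that fit (135 higher, 94 lower). A count of 2 in 12 is near that share and is not read as a result about these genes. RAB23, a small GTPase that restrains Hedgehog signalling in mice, had 3.85, 4.89 and 4.88 in CFAP20-KO, against 2.21, 3.65 and 2.79 in WT. All CFAP20-KO values were above the WT values, and the change on the log2 scale with the run covariate was 0.79 (SE 0.13), at an adjusted p of 0.030 with the covariate and 0.56 without it, by limma. TTC26, also known as IFT56 and a partner of IFT52 in the IFT-B complex, had 0.414, 0.611 and 0.584 in CFAP20-KO, against 0.721, 0.699 and 1.15 in WT. All CFAP20-KO values were below the WT values, and with the run covariate the change was -0.81 (SE 0.15), at an adjusted p of 0.036 with the covariate and 0.64 without it, by limma. The dynein-2 intermediate chain DYNC2I1, the transition zone protein TMEM17 and the chaperonin-like BBS12 were also lower without overlap, so that 5 of the 12 genes did not overlap, against the 18.1% of all genes given above. These 3 did not pass in either fit. As for EVC2, WT replicate 2 has no weight in the fit with the run covariate. Part of the spread in that fit is between CFAP20-KO replicates 2 and 3, which resembled each other more than any other pair, so its SEs may be too small. The Hedgehog receptors on the list, such as PTCH1 and SMO, the listed target genes and GLI1 were not among the genes placed.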

How the data were processed

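BrU-seq libraries were compared as 3 CFAP20-KO, 1 rescue and 3 WT. Sequencing was paired-end at 151 bp, per the labels' protocols. The submitters' processing notes name STAR 2.7.7a, SAMtools 1.11, HOMER 4.8.2, Trim Galore 0.6.5, FastQC 0.11.9, R 4.0.5 and the build hg38. The authors deposited signal as read density in 200-bp bins reaching 100 kb either way from each origin centre, on the strand that is transcribed. The sources used here do not give their scaling. Its steps summed to between 20447648 in CFAP20-KO replicate 1 and 96532606 in WT replicate 2. Since 1 fragment can fill neighbouring bins, steps are not reads, and no counting interval was computed. The deposited splice index is a fraction from 0 to 1 whose depth is unknown. The authors' deposited score columns, differences between index columns, were not used.

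Of 20046 protein-coding genes in GENCODE 44, 14353 were over 3 kb in length with the nearest coding gene on that strand over 2 kb away, and 2032 of these were located in windows of their own strand. Bins were read in the direction of the nearest gene that the deposited list gives: in WT replicate 3 the median gene body signal was 2.24 in this direction and 0.175 in the mirrored one. Signal of a neighbour on the other strand can enter only where strand marking failed. Changes are differences in log2(signal + 0.0679), the 10th percentile of non-zero values, which understates changes of low genes. Genes averaging at least that value were tested with limma 3.58.1 (R 4.3.3, trend and robust options, statmod 1.5.0) with Benjamini-Hochberg adjustment over all features. Single values were compared by exact permutation. The code was tested on simulated data. The start-to-body ratio used genes of at least 10 kb. The strongest stretch was the 10-kb block with the highest mean over the 6 libraries.

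Same-numbered libraries deviated together for the start-to-body ratio (correlations 0.606, 0.279 and 0.159) and the splice index (0.508, 0.207 and 0.214), above the limit of 0.1 for each pair, and the numbers were taken as pairs for these 2 measures from the data alone. The headers of the authors' difference columns give other partners: CFAP20-KO replicates 2 and 3 are both set against WT replicate 3. The rescue is set against WT replicate 2 there, so these headers follow the runs and not the numbers. The correlations did not single out one partner: CFAP20-KO replicate 3 correlated with WT replicate 2 at 0.303 for the ratio and 0.219 for the index, and CFAP20-KO replicate 2 with WT replicate 3, of its run, at 0.202 and 0.25. The 10 genes and the lists were chosen with earlier results of these data known. Other genes are named where they passed in the fit without covariates or with the run covariate. The genes lower without overlap were named after their values were seen. Leaving out the strongest block was chosen after seeing the data. The windows around transcript starts were not used here.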

Additional observations from a re-analysis of the deposited data

How the results depend on the processing

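Gene body calls over all genes numbered 0 in the planned comparison, 2 without the filter on low signal, 113 with a replicate block, 229 with the run covariate (135 higher, 94 lower), 114 with the run covariate and centred libraries (25 higher, 89 lower), and 116 with that covariate and CFAP20-KO replicates 2 and 3 averaged. Chosen after seeing the data, leaving out the strongest 10-kb block gave 1 call, and 262 with the run covariate. Same-numbered libraries correlated at 0.835, 0.577 and 0.0257 for gene bodies and were not taken as pairs there. Ratio calls numbered 0 as planned, 15 with the replicate block, 217 with the run covariate and 7 with centring as well. Splice calls numbered 0, also with the replicate block, and 60 with the run covariate and centring. The 12 further list genes had 0 calls, and 2 with the run covariate, against 13.4% of all genes in that fit. The cause was not tested.

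EVC2 was called with the run covariate (-1.19) and with centring as well (-1.38, limma adjusted p = 0.041). It was also called with the run covariate and CFAP20-KO replicates 2 and 3 averaged (-1.22, limma adjusted p = 0.022). These calls all use the run covariate and are not separate support. Averaged without that covariate, the change was -0.83 and was not called. Under its 16 alternatives its adjusted p ranged from 0.022 to 1, with 0.17 under the replicate block. None of the other 9 genes was called under any alternative. Some log2 changes turned sign. DYNC2H1 (0.06) became -0.13 centred, -0.080 with the run covariate, -0.28 with both, -0.28 with CFAP20-KO replicates 2 and 3 averaged, -0.18 averaged with the run covariate, and -0.076 without its strongest block with the run covariate. CC2D2A (-0.05) became 0.15 over the first 3 kb and 0.032 without its strongest block with the run covariate. CPLANE2 (0.46) became -0.079 with the run covariate and centring. GPR161 (-0.19) became 0.018 over the first 3 kb and 0.019 without its strongest block with the run covariate. GLI3 (-0.05) became 0.043 with the run covariate, 0.028 averaged with the run covariate and 0.18 without its strongest block with the run covariate. Of the ratios, IFT52 (-0.39) became 0.076 and GPR161 (-0.056) 0.094 with the run covariate and centring, GPR161 0.21 over the first 3 kb and 0.21 centred, and GLI3 (0.022) -0.31 with the run covariate.

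Leaving out each library in turn gave 0 calls in every comparison. The gene body change then ranged from 0.48 to 0.84 for IFT52, -0.30 to 0.73 for DYNC2H1, -0.16 to 0.080 for CC2D2A, 0.14 to 0.57 for TMEM67, -0.52 to 0.047 for OFD1, -0.11 to 1.04 for CPLANE2, -1.16 to -0.56 for EVC2, -0.35 to -0.10 for GPR161, -0.24 to 0.51 for GLI2 and -0.26 to 0.17 for GLI3. The ratio change ranged from -0.44 to 0.33 for DYNC2H1, -0.58 to 0.52 for GPR161, -0.88 to 0.083 for GLI2 and -0.68 to 0.52 for GLI3. The number of long genes with a lower far share ranged from 3 to 6, with CC2D2A from -5.11 to 1.53, GLI2 from -2.75 to 2.59 and GLI3 from -0.31 to 5.55 percentage points. Depth limits the precision of EVC2, with 105 to 855 steps in a library, and CPLANE2, with 206 to 305.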

Other observations

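Signal on the strand of EVC2 was also present in the 3 kb before its annotated start, at 1.44, 1.73 and 1.67 in CFAP20-KO and 1.92, 0.416 and 4.49 in WT, although the gene was near 0 after that start. Along DYNC2H1, the 1 kb from 43 kb after the start was the highest of the gene, with a mean over 6 libraries of 7.52, and in IFT52 it was the 1 kb from 13 kb, with 2.68. Of the wider list, 15 introns of 11 other cilium and Hedgehog genes were in the splice table. With limma in the planned comparison 0 of these passed, against 0 of all 6537 introns tested (0%).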
